A study of Homo sapiens with 4 samples.

Results

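The AP-1 genes described here are FOS, FOSB, FOSL1, FOSL2, JUN, JUNB, JUND and ATF3, taken by gene symbol from the authors' DESeq2 comparison of CFL1 knockout and control cells. Their Ensembl identifiers, in that order, are ENSG00000170345, ENSG00000125740, ENSG00000175592, ENSG00000075426, ENSG00000177606, ENSG00000171223, ENSG00000130522 and ENSG00000162772. All 8 were found among the 59885 genes of the table, and all 8 were among the 16629 genes with an adjusted p. The labels give PANC-1, an established human pancreatic ductal adenocarcinoma line, as the cells of 2 libraries labelled control and 2 labelled KO CFL1, the gene of the actin-severing protein cofilin-1. Neither a treatment nor a time is named in the labels, and how CFL1 was disrupted, what the control cells carried and whether the knockout cells were 1 clone are not given in the sources used here. The labels do not say that the libraries of a group came from separate cultures, and every p-value therefore reflects only how these libraries vary, a spread that may be technical.

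AP-1 is a family of paired transcription factors that hold DNA through a basic region and join through a leucine zipper. FOS proteins pair only with partners such as JUN proteins, JUN proteins can also pair among themselves, and ATF3 can pair with itself or with JUN proteins. Growth factors, serum and stress induce FOS, FOSB, JUN, JUNB and ATF3 within minutes through MAP kinases, and FOSL1 is known from invasive carcinoma cells as a target of sustained RAS and ERK signalling. The dimers bind the site TGACTCA, and dimers with ATF or CREB proteins bind TGACGTCA.

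The promoters of FOS, FOSB, JUND, JUNB and ATF3 are shown because these genes had knockout values above both control values by more than FOSL2 did, and that of JUN because its groups overlapped. Each line gives the 250 bases before the RefSeq start (GRCh38.p14), 5′ to 3′ along the gene's strand. Capitals mark matches on either strand to the CRE core TGACGT, to the full CRE TGACGTCA, to its variant TGACATCA, to the AP-1 site TGACTCA or to the TATA box TATAAA. The stretches are chr14:75278578-75278827 (plus strand) for FOS, chr19:45467746-45467995 (plus strand) for FOSB, chr19:18281623-18281872 (minus strand) for JUND, chr19:12791236-12791485 (plus strand) for JUNB, chr1:212565157-212565406 (plus strand) and chr1:212614768-212615017 (plus strand) for the upstream and downstream starts of ATF3, and chr1:58784048-58784297 (minus strand) for JUN.
FOS: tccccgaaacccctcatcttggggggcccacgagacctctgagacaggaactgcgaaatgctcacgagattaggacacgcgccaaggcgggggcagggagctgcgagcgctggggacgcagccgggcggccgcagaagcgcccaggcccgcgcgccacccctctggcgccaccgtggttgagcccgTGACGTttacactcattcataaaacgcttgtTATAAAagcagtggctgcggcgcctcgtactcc
FOSB: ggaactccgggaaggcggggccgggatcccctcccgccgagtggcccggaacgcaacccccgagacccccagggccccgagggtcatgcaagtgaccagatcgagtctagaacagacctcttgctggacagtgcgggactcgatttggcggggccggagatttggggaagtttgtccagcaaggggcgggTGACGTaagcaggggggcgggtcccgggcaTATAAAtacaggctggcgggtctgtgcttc
JUND: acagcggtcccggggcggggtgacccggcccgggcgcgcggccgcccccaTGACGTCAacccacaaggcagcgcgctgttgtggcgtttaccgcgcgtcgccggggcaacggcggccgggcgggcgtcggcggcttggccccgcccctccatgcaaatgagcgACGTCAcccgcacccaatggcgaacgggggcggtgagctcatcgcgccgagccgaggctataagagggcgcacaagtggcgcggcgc
JUNB: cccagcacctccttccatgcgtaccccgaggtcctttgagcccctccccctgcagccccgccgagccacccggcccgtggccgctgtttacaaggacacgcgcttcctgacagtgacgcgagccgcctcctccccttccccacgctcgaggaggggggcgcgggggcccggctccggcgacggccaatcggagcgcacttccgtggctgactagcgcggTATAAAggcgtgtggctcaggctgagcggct
ATF3, upstream start: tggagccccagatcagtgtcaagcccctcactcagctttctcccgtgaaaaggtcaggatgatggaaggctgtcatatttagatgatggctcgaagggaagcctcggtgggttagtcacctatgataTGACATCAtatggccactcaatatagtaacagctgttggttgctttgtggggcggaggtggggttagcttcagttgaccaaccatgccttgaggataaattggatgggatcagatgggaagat
ATF3, downstream start: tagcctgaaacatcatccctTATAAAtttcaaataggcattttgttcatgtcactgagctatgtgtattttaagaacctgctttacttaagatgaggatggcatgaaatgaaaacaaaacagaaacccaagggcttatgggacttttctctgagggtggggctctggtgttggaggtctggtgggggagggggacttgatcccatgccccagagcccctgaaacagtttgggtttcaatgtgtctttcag
JUN: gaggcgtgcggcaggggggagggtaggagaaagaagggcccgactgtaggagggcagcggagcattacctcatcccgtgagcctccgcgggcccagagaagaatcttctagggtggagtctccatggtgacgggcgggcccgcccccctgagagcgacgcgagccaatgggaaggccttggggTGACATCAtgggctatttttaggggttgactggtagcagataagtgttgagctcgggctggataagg
Windows from 250 bases before to 50 after a start were found for 7 of the 8 genes, with 2 windows for ATF3, and FOSL1 had none. TGACGT, the core of the CRE, lay in windows of 4 of these 7 genes, against 7.98% of all 35116 windows. Its first base was 64 bases before the start in FOS, 60 in FOSB and 66 in FOSL2. JUND held the full palindrome TGACGTCA, which contains TGACGT, 200 bases before its start, and a further TGACGT on the other strand beginning 87 bases before it. JUNB and ATF3, which also had knockout values above both controls, had no TGACGT in their windows, and FOSL2, which has it, had the smallest difference of the 8 genes in the authors' deposited table. JUN had no TGACGT in the window but the related TGACATCA 67 bases before its start, and an ATF3 window held TGACATCA as well, a motif present in 2.61% of all windows. TATAAA was found in 4 of the 7 genes, FOS, FOSB, JUNB and ATF3, against 11.5% of windows, and TGACTCA in FOSL2 alone, against 4.95%. TATAAA began 33 bases before the start in FOS, 30 in FOSB and 31 in JUNB, but 230 before the downstream start of ATF3. The counts out of 7 are per gene, whereas the percentages are per window. The CArG box, the serum response factor site, was found in 0 of these windows and in 1.29% of all. Sites more than 250 bases before a start lay outside the search. These matches are descriptions of letters in a window, and the motifs were chosen with the expression values known. Bases outside the windows and any other start of a gene were not searched, so an absence holds for these windows alone. Which starts are in use in these cells was not tested. The 2 ATF3 stretches lie before starts listed by RefSeq and were not shown to act as promoters here.

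Each library's reads were recovered from the base means and fold changes of the table, as described under the processing. The recovered reads summed to between 12362056 and 14651637 per library, and the letters A and B are names that do not map to the replicate numbers in the labels. Control B was unlike the other 3, with Pearson's r of log2(normalized count + 1) of 0.71 to control A over 17132 genes, against 0.98 between control A and each knockout. This is a correlation across genes, which are not independent replicates. The 2 controls were more than 4-fold apart for 3603 of these genes, control A and knockout A for 148. Whether the library called control B holds the same line as the other 3 was not tested, and each value against it is a value against the library so labelled. CFL1 itself was at 6276 (control A), 13761 (control B), 2285 (knockout A) and 2487 (knockout B) normalized counts, and its fall passed the authors' test at a DESeq2 adjusted p of 0.00168. Of the epithelial markers, KRT7 was at 3551 in control A but 108 in control B, with knockouts at 4000 and 3683. KRT19, the ductal keratin, was at 1.82 and 2481 (controls A and B) with 0 in both knockouts. The summed level of 6 leukocyte markers was 41.8 (control A), 1255 (control B) and 36.7 to 45.2 (knockouts), almost all of it CD68 in control B, with LYZ at 0 everywhere and PTPRC at 0 in both controls. Summed over 5 fibroblast markers it was 869 (control A), 1582 (control B) and 1013 to 1134 (knockouts), with LUM at 0. Its 2 main members differed, COL1A1 being at 354, 1574, 687 and 556 and PDGFRB at 513, 6.71, 439 and 451 in control A, control B, knockout A and knockout B. The acinar markers PRSS1, CPA1 and AMY2A had 0 reads. The part of these differences between libraries in the AP-1 results was not tested, so values are given against each control. In bulk RNA, fewer cells that express a gene and less RNA of it per cell cannot be told apart.

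ATF3 was the 1 AP-1 gene that passed the authors' test, and it rose. Among the other 7, FOS, FOSB, JUNB and JUND also had both knockout values above both control values, and FOSL2 lay barely above both controls. The group fold changes of FOS, FOSB, JUNB and JUND in the authors' deposited table ran from 1.67 to 4.13. FOSL1 and JUN were highest by far in control B. With adjusted p under 0.05 as the call, 1 of the 8 was called higher and 0 lower, against 0.138% of all tested genes called higher and 0.421% called lower. At an unadjusted p under 0.05, the mark that the deposited table itself uses, 5 of the 8 were higher and 1, FOSL1, lower, against 3.13% and 9.49% of all tested genes. The median log2 fold change over the 8 genes was 0.82 in the authors' deposited table, and -0.03 over all tested genes.

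**Figure D1:**
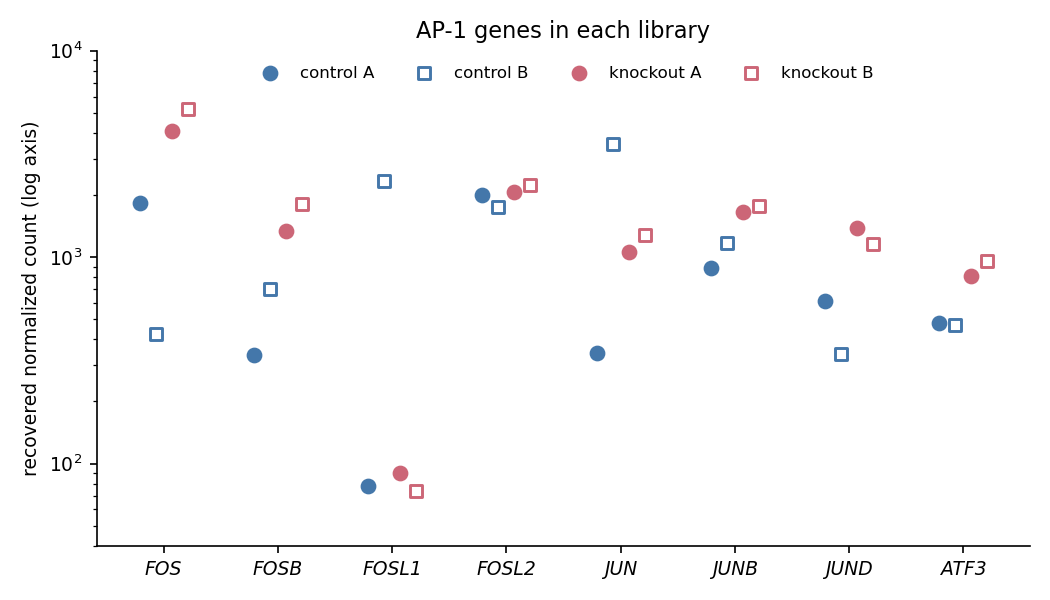
Recovered normalized counts (log axis) of the 8 AP-1 genes in each library, blue for controls and red for knockouts, filled for library A and open for library B. Control B stands far above the other 3 libraries for FOSL1 and JUN, at 2344 and 3521 normalized counts, and below them for FOS, at 425, while the 2 controls coincide for ATF3.

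FOS encodes c-Fos, the short-lived partner that is made first after stimulation. Control A held 1826 normalized counts of it and control B 425, knockout A 4072 and knockout B 5217. Both knockouts lay above both controls, by 2.23- and 2.86-fold over control A and by 9.59- and 12.3-fold over control B. The controls themselves differed 4.30-fold. In the authors' deposited table FOS stood at 2.04 on the log2 scale (SE 0.701), with a DESeq2 adjusted p of 0.170 that did not pass.

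FOSB, whose product resembles c-Fos and persists longer in its truncated form, was at 335 (control A), 702 (control B), 1344 (knockout A) and 1800 (knockout B) normalized counts. It had the widest distance from control A among the 8 genes, at 4.01-fold in knockout A and 5.37-fold in knockout B, and lay 1.91- and 2.56-fold above control B. Its log2 value in the authors' deposited table was 1.60 (SE 0.472), and the DESeq2 adjusted p of 0.0850 missed the threshold. FOS and FOSB were thus separated between the groups in every library, but control B was the lower control for FOS and the higher one for FOSB.

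FOSL1, which encodes FRA-1, had 78.2 normalized counts in control A but 2344 in control B, and the knockouts held 90.3 and 73.3. Control B was 30.0-fold above control A, and control A lay between the knockouts. The authors' deposited table lists FOSL1 at -3.89 on the log2 scale (SE 1.75, DESeq2 adjusted p 0.333). On the recovered reads without control B, the knockout mean differed from control A by 0.06 on the log2 scale.

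FOSL2, which encodes FRA-2, was the steadiest of the 8 genes and held 2007 (control A), 1746 (control B), 2072 (knockout A) and 2248 (knockout B) normalized counts. FOSL2 stood at 0.20 on the log2 scale in the authors' deposited table (DESeq2 adjusted p 0.666), with a 95% interval from -0.19 to 0.60. Differences within that interval could not be resolved with these libraries.

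JUN encodes c-Jun, which activates its own gene. Its normalized counts were 342 (control A), 3521 (control B), 1059 (knockout A) and 1283 (knockout B). The knockouts lay 3.10- and 3.76-fold above control A and at 0.301 and 0.364 of control B, so the groups overlapped. JUN was listed at -0.72 on the log2 scale in the authors' deposited table (SE 0.964, DESeq2 adjusted p 0.742). With limma on the recovered reads, JUN was at 0.087 on the log2 scale over all libraries. It was at 1.77 without control B and at -1.59 without control A.

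JUNB encodes a weaker activator that can restrain c-Jun. JUNB reached 1663 and 1773 normalized counts in knockouts A and B, where controls A and B had 886 and 1174. The knockouts were 1.88-fold (A) and 2.0-fold (B) above control A and 1.42- and 1.51-fold above control B. That gap was 0.74 on the log2 scale in the authors' deposited table (SE 0.260, DESeq2 adjusted p 0.190) and did not pass.

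JUND, the JUN gene that is expressed in many resting cells, was at 614 (control A), 339 (control B), 1378 (knockout A) and 1159 (knockout B) normalized counts. Each knockout lay at least 1.89-fold above each control. JUND came next to ATF3 in the authors' deposited table, at 1.41 on the log2 scale (SE 0.406), its DESeq2 adjusted p of 0.0698 lying just outside the threshold.

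ATF3 encodes a stress-induced factor that represses as a homodimer. Its controls were nearly equal, with 477 and 469 normalized counts, and the knockouts had 808 and 954. The knockouts lay 1.69- and 2.0-fold above control A and 1.72- and 2.03-fold above control B. In the authors' deposited table ATF3 stood at 0.90 on the log2 scale (SE 0.232) with a DESeq2 adjusted p of 0.0245. Its fold was smaller than those of FOS, FOSB and JUND, and its standard error was smaller too. With limma on the recovered reads ATF3 had a log2 fold change of 0.89 but an adjusted p of 0.722. That limma fit called 0 of 24815 genes, and 495 of them had an unadjusted p under 0.05.

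**Figure D2:**
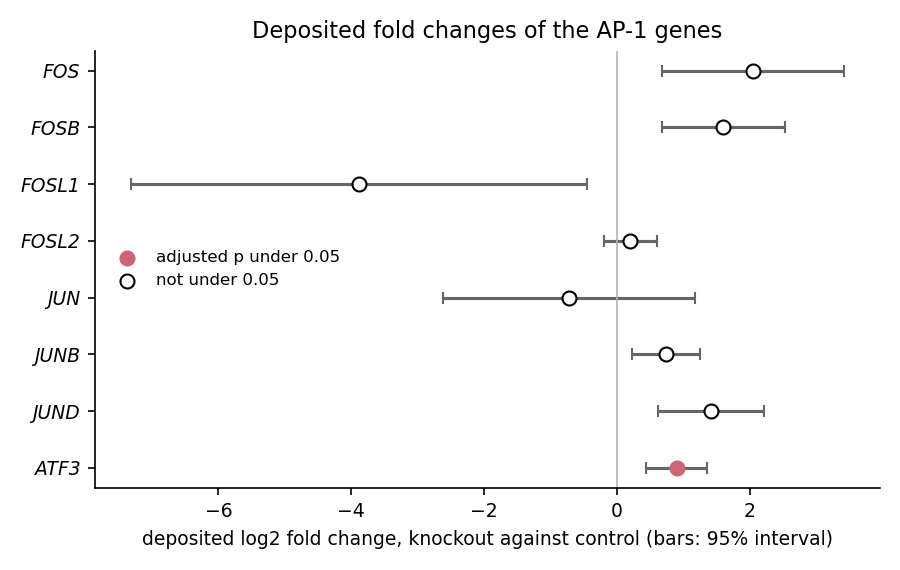
Log2 fold change of each AP-1 gene in the authors' deposited table (horizontal axis, knockout against control), with bars for the 95% interval and a filled point for an adjusted p under 0.05. ATF3 at 0.90 is the 1 filled point, and FOSL1 has the widest bar, with a standard error of 1.75.

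Both knockouts lay above both controls for 6 of the 8 genes, FOS, FOSB, FOSL2, JUNB, JUND and ATF3, and below both for 0, against 23.9% and 21.1% of all 16451 tested genes with recovered reads. A distance of at least 1.5-fold from each control was reached by 4 of the 8, FOS, FOSB, JUND and ATF3, against 3.02% of all. Against control A alone, 6 of the 8 were at least 1.5-fold higher in both knockouts, the same 4 with JUN and JUNB, against 6.15% of all. Against control B alone it was 4 of 8, against 31.0% of all. The 1.5-fold mark was chosen after the values were seen, and a comparison with 1 control library has no replicate check on that side. The median difference of the knockout mean over the 8 genes was 0.996 (log2) from control A and 0.726 from control B, where all genes gave 0.005 and 0.014.

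**Figure D3:**
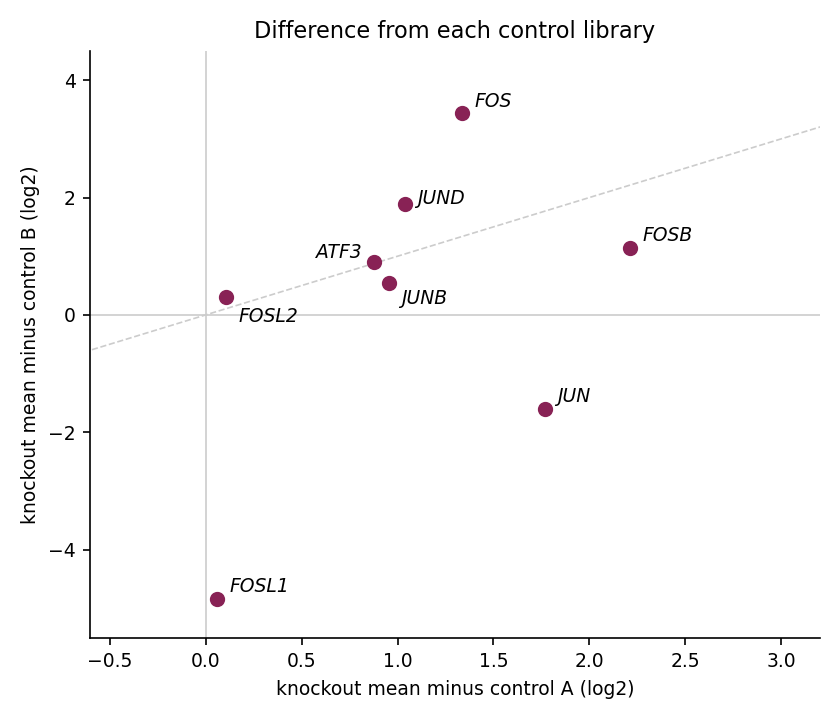
Mean of the knockouts minus control A (horizontal, log2) and minus control B (vertical, log2) for each AP-1 gene, on axes of different scale with a dashed line of equal difference. ATF3 lies on that line at 0.88 and 0.90, while JUN is at 1.77 and -1.59 and FOSL1 at 0.06 and -4.83.

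The knockouts stayed within 1.5-fold of each other for all 8 genes, as they did for 89.9% of all genes, and the widest gap between them was 0.42 on the log2 scale, for FOSB. The controls differed by at least 4-fold for 3 of the 8. Control B was the higher for FOSL1 and JUN, a direction seen in 8.45% of all genes, and the lower for FOS, a direction seen in 12.7%. With control B left out, limma on the recovered reads gave FOS, FOSB, JUN, JUNB, JUND and ATF3 differences of 0.88 (ATF3) to 2.21 (FOSB) on the log2 scale. Each had an adjusted p of 0.264, and their unadjusted p ranged from 0.000214 (JUN) to 0.00291 (ATF3), where 14.1% of all genes had an unadjusted p under 0.05. With control A left out, limma called FOS and JUND higher and FOSL1 and JUN lower, at adjusted p of 0.0312, 0.0380, 0.0250 and 0.0482, where 33.4% of all genes were called. Those 2 fits compare both knockouts with 1 control each and assume that this control varies as the knockouts do.

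Levels of different genes were compared as normalized counts per kilobase of the longest coding transcript. In the knockouts FOS led with 1887 and 2418 per kilobase, followed by JUNB with 914 and 974 and JUND with 740 and 622. ATF3 with 398 and 469 and FOSB with 356 and 477 overlapped, as did FOSB with JUN at 299 and 363 and JUN with FOSL2 at 309 and 335. FOSL1 was lowest with 54.1 and 43.9. Control A had the same first 3, with FOS at 846, JUNB at 487 and JUND at 330 per kilobase, but FOSB and JUN were near the bottom at 88.8 and 96.5. In control B the order was another one, with FOSL1 at 1404, JUN at 995 and JUNB at 645 per kilobase ahead of FOS at 197.

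Within the FOS family, FOSL1 gave 44.9% of the reads in control B (95% Wilson interval 43.5 to 46.4), against 1.84% in control A (1.49 to 2.27), 1.19% in knockout A and 0.785% in knockout B. FOS gave 8.14% in control B, 43.0% in control A and 53.7% and 55.9% in the knockouts. FOSL2 gave 47.3% in control A and 27.3% and 24.1% in the knockouts, where FOSB gave 17.7% and 19.3% against 7.90% in control A. Within the JUN family, JUN gave 70.0% of the reads in control B (68.6 to 71.3), 18.5% in control A (16.9 to 20.3) and 25.8% and 30.4% in the knockouts. These intervals cover counting error only. The summed normalized count of the FOS family was 4246 (control A), 5216 (control B), 7579 (knockout A) and 9339 (knockout B), so both knockouts were above both controls. That of the JUN family was 1842 and 5033 for controls A and B, with the knockouts between them at 4100 and 4215.

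**Figure D4:**
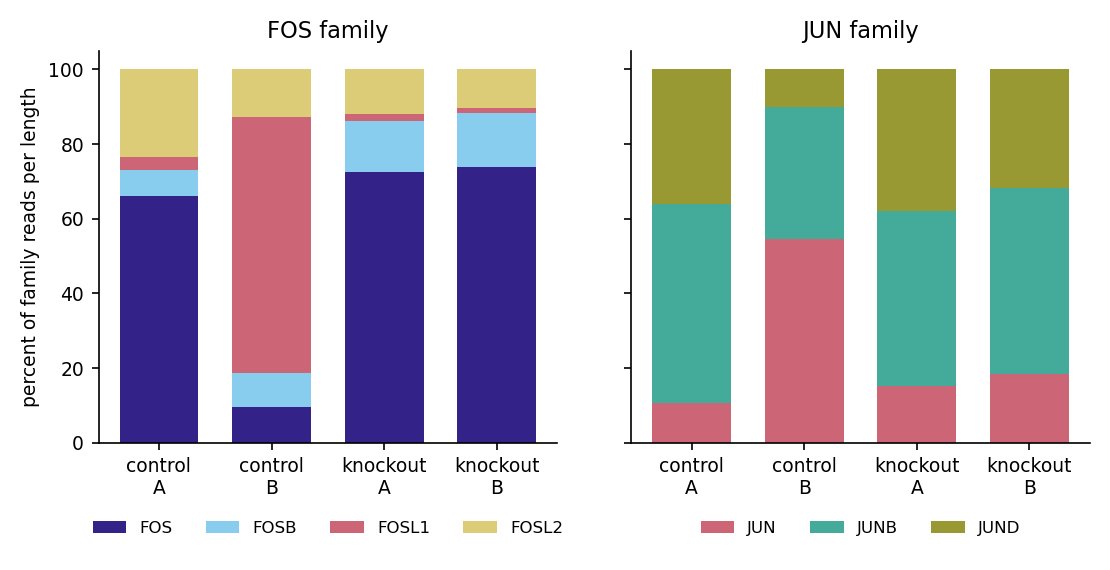
Share of each gene in the reads per transcript length of the FOS family (left) and the JUN family (right), in percent, with 1 bar per library. Control B holds 68.6% FOSL1 and 54.6% JUN, whereas FOS makes up 66.1% to 73.9% of the FOS family in the other 3 libraries.

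The genes also differ in the transcripts themselves. JUN, JUNB and JUND have 1 exon each in the longest coding transcript of GENCODE, as do 5.93% of 19500 coding genes, and the other 5 have 4 exons. The motif ATTTA, the core of AU-rich elements that mark many early transcripts for rapid decay, occurs 5 times in the 806 bases of the 3′ untranslated region of FOS, or 6.20 per kilobase. JUNB has 4.0, ATF3 2.45 and JUN 2.33 per kilobase, against a median of 1.53 over coding genes. FOSB, FOSL1, FOSL2 and JUND have 1.39 to 1.85 per kilobase. The longer element TTATTTATT occurs in FOS and FOSL2, and in 7.95% of coding genes.

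The profile closest to that of ATF3 over the 4 libraries, among 11454 other genes whose base mean reached 100, was that of PRX, with a root mean square difference of 0.03 on the log2 scale, followed by SMIM19 and CCDC28A with 0.06 and 0.07. PRX was at 95.4 and 91.7 normalized counts (controls) and 168 and 195 (knockouts), about the same ratios as ATF3 at a lower level, and it did not pass in the authors' deposited table (DESeq2 adjusted p 0.216). Closest to FOS, the AP-1 gene with the highest base mean, were ZNF467, the orphan receptor gene NR4A2 and the collagen gene COL4A1, with differences of 0.10, 0.21 and 0.21. NR4A2 was at 259 and 40.2 (controls) and 468 and 537 (knockouts). A likeness over 4 libraries is a description only.

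Of 24 other bZIP genes, whose products pair with AP-1 proteins or share their sites, 21 were tested and 0 were called in either direction. Of all tested genes 0.559% were called, so 0 calls in a list of this size do not show that its genes were unchanged. The 3 with the strongest statistic were ATF5, CREB5 and NFE2L2, which the authors' deposited table lists at -2.99, -3.88 and -0.32 (log2). ATF5 was at 71.8 and 1159 (controls A and B) and 88.5 and 65.8 (knockouts), and CREB5 had 9.09 and 376 against 8.85 and 17.3, so control B alone was high for both. NFE2L2, the gene of the antioxidant factor NRF2, was lower in both knockouts, at 2242 and 2187 against 2816 and 2715, and did not pass.

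Of 22 genes of MAP kinases, the kinases that activate them and the ribosomal S6 kinases that they activate, 21 were tested and 0 were called. MAP2K3, which activates p38, was at 786 and 6971 (controls A and B) and 938 and 884 (knockouts), high in control B alone. MAP2K5 and MAP2K2, an activator of ERK, were listed at 0.56 and 0.34 (log2) in the authors' deposited table without passing, and both knockouts lay above both controls for each. Among 13 genes of factors that bind the FOS and JUN promoters, 0 were called, MEF2D, MKL2 and ATF1 coming first with 0.36, -0.58 and 0.49. Among 7 genes of AP-1 protein turnover and cofactors 0 were called, led by the JUN coactivator gene COPS5, the menin gene MEN1 and the ubiquitin ligase gene ITCH with 0.48, -0.58 and -0.19. The medians of these 3 lists in the authors' deposited table lay between -0.19 and -0.11 (log2), against -0.03 over all genes. Each 0 in these 3 lists stands beside 0.559% of all tested genes called, and does not show that the genes were unchanged.

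Of 24 genes listed as known AP-1 targets, 18 were tested, 0 rose and 3 fell, against 0.138% of all tested genes called higher and 0.421% lower. The 3 were the collagenase gene MMP1, the growth factor gene EREG and the connexin gene GJA1. All 3 were read in control B alone, at 348, 2938 and 10802 normalized counts, with 0 reads in the other 3 libraries. Over the 18 targets, the median difference of the knockouts was -3.09 (log2) from control B and 0.06 from control A. Of the 18, 4 had both knockouts above both controls and 4 had both below, against 23.9% and 21.1% of all genes.

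Early response and stress genes outside the family were listed as well. Of 20 immediate early genes 17 were tested, 1 rose, EGR1, and 0 fell, against 0.138% of all tested genes called higher and 0.421% lower. Both knockouts lay above both controls for 7 of the 17 and below both for 0, against 23.9% and 21.1% of all genes. EGR1, a zinc finger factor induced together with FOS, was at 605 and 658 (controls) and 1279 and 1507 (knockouts). In the authors' deposited table it rose by 1.14 on the log2 scale (DESeq2 adjusted p 0.000384). Of 12 stress genes that are induced along with ATF3, 1 rose, NUPR1, and 0 fell, against the same 0.138% and 0.421% of all tested genes. NUPR1, a stress-induced chromatin protein gene, was at 185 and 191 (controls) and 650 and 432 (knockouts). Its rise was 1.52 on the log2 scale in the authors' deposited table (DESeq2 adjusted p 0.00692). Against control A, 8 of the 12 were at least 1.5-fold higher in both knockouts, against 6.15% of all genes. For 2 of the 12 both knockouts lay above both controls and for 1 below both, against 23.9% and 21.1% of all genes. The median difference over the 12 was 0.92 (log2) from control A but -0.67 from control B.

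Heat shock genes, which cell handling also induces, had 0 of 12 called, where 0.559% of all tested genes were called. With recovered reads for 9 of them, both knockouts lay above both controls for 1, HSPB1, and below both for 4, where 23.9% and 21.1% of all genes did so, and 0 of the 9 reached 1.5-fold above control A. HSPA8, HSPB1 and DNAJB1 came first by statistic, which the authors' deposited table lists at -1.44, 0.83 and -1.23 (log2).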

How the data were processed

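Total RNA of 2 control and 2 CFL1 knockout libraries was read by Illumina sequencing, per the labels' protocols. Listed in the submitters' processing notes are the tools STAR, RSEM, cutadapt and FastQC and the build hg19, with versions and roles not given in the sources used here. The deposited table is the authors' DESeq2 result. The base mean is a signal the authors deposited, averaging size-factor-scaled counts of 4 libraries. Also from the authors come fold changes with standard errors in log2 units, a Wald score, and p-values before and after Benjamini-Hochberg adjustment.

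The table has no columns per library. Whole reads were recovered as the whole numbers whose weighted sum gives a base mean within its 15 printed digits. The weights were those of genes whose base mean is a single read, and the group came from the sign of their fold change. From a base mean of 100 up, only numbers giving a fold change near the deposited one were searched. This gave reads for 30653 of 30662 genes with a base mean under 10000 (99.97%). A negative binomial 2-group model was then refitted, with the dispersion set by the deposited standard error. It gave the deposited fold change within 0.0001 log2 for 16829 of 16940 genes and for all 8 AP-1 genes. For genes of high base mean, among them FOS, FOSB, FOSL2, JUN and JUNB, reads were kept only where this refit agreed. The agreement of those genes is therefore no separate check. Base means shifted on purpose gave a solution with such agreement in 0 of 450 trials below 3000, where all 8 lie, and in 2 of 150 above it. Library letters do not map to replicate numbers. RSEM estimates counts, so the reads are rounded estimates.

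Limma 3.58.1 (R 4.3.3, trended prior) was fitted on log2(normalized count + 1), keeping means of 1 or more, and was run on simulated data with capped dispersions that leave out the distance between these controls, which does not show how many true changes it would call here. Other settings tried were 0.1 as pseudocount, a minimum mean of 10 or none, scaling to total reads, other adjustments of the deposited p, and leaving out each library. Promoters are RefSeq's (GRCh38.p14), matched by symbol, and transcripts GENCODE's, used for lengths, exons and motifs only. The AP-1 genes and the other lists were chosen with earlier results of these data known. The text names CFL1, the 8 AP-1 genes, the called members of each list or otherwise the 3 with the largest Wald score at a base mean of at least 100, and the 3 closest profiles to ATF3 and to FOS. KRT7, KRT19, CD68, COL1A1 and PDGFRB were named after their values were seen. Computations used Python 3.11.15, numpy 2.4.6, pandas 2.3.3, scipy 1.17.1, numba and matplotlib 3.10.9.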

Additional observations from a re-analysis of the deposited data

How the results depend on the processing

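The count of AP-1 genes called, 1 of 8 in the authors' deposited table, was 1 when p was adjusted with no independent filtering or over base means of at least 10 or 100, 0 at an adjusted p under 0.01, and 6 by the table's own mark of an unadjusted p under 0.05. Over all genes the same settings other than the mark gave 62 to 91 calls against 93. An unadjusted p under 0.05 in the authors' DESeq2 test held for 12.6% of all tested genes. With all libraries, limma on the recovered reads called 0 AP-1 genes and 0 of all genes in every setting. The settings were pseudocounts of 1 and 0.1, a minimum mean of 10, no filter and scaling to total reads. In that order, 495, 472, 259, 685 and 498 genes had an unadjusted limma p under 0.05. The genes fitted were 24815, 24815, 17132, 30653 and 24731. Scaling to total reads moved the median of all tested genes from 0.011 to 0.146 (log2). With each library left out in turn, calls ranged from 0 to 4 AP-1 genes and from 0 to 8340 genes in all, the high values without control A. JUN, -0.72 in the table, was 0.087 with limma, with a minimum mean of 10 and with no filter, 0.088 with a pseudocount of 0.1 and 0.22 scaled to total reads, and ranged from -1.59 to 1.77 with 1 library left out. FOSL1 ranged from -4.83 to 0.058, ATF5 from -3.91 to 0.087, CREB5 from -4.81 to 0.41 and MAP2K3 from -2.94 to 0.21, each positive only in the fit without control B among those run. FOS, FOSB, FOSL2, JUNB, JUND and ATF3 kept a positive sign in every setting run. The cause of the difference between DESeq2 and limma was not tested. No paired analysis was possible because the recovered libraries carry no replicate numbers, so which of the possible pairings the labels mean is unknown. Each AP-1 gene had at least 68 reads in every library, FOSL1 having the fewest, and how depth and the number of libraries share in the error was not tested.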
